A study of Mus musculus with 6 samples.

Results

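The genes described here are the protein-coding members of 8 families of developmental transcription factors outside the Hox clusters: Pax, Tbx, the sine oculis homeobox family, Lhx, Dlx, Irx, Nkx and Sox. They were chosen by symbol alone, as the family name followed by a number, without Lhx8 and without antisense genes. The rule used no measured value, but it was set with earlier results of these data known. The rule found 80 of the 49315 genes in the count files: 19 Sox, 14 Nkx, 13 Tbx, 9 Pax, 7 Lhx, 6 Dlx, 6 Irx and 6 sine oculis homeobox genes. RNA was measured in granulosa cells isolated from ovaries of C57BL/6J mice aged 8 to 9 weeks, in 3 wild-type libraries (WT) and 3 libraries labelled as a Jmjd3 knockout (KO) restricted to granulosa cells. JMJD3, encoded by Kdm6b, is a demethylase that takes methyl groups off lysine 27 of histone H3. The sources used here do not give the promoter that drives the deletion, the exons it removes or the number of animals behind each library, so p-values measure the spread between libraries, which may be technical.

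These factors set cell and organ identity in the embryo: homeobox and PAX proteins bind DNA through a homeodomain or paired domain, TBX proteins through a T-box and SOX proteins through an HMG box. In cells that do not use them, their genes are classical targets of Polycomb repressive complex 2 (PRC2), which writes the trimethyl mark on histone H3 lysine 27 over CpG-rich promoters. Removal of the mark by KDM6 demethylases accompanies their activation. In the ovary, several members are known from the somatic lineage, such as Lhx9, needed for the gonad to form, and Irx3 and Irx5, active in early granulosa cells.

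Total counts ran from 42379018 to 49901493 per library, and 1 CPM, the count scaled to library size, stood for 42.5 to 51.4 counts. Kdm6b itself stood at 72.8, 66.3 and 66.2 CPM across WT replicates 1 to 3 and at 64.7, 68.6 and 112 CPM across KO replicates 1 to 3, so the KO genotype rests on the label. All 13 granulosa cell markers were present in every library, with Foxl2 at 112 ± 8.56 CPM in WT libraries and 123 ± 7.03 CPM in KO libraries (SD, n = 3 each). Of these markers 2 were called, both lower in KO: Amhr2, at 267 ± 26.6 and 133 ± 7.02 CPM, and Wt1, at 93.0 ± 6.99 and 64.0 ± 1.41 CPM (edgeR, adjusted p = 0.00212 and 0.0246). Other cell types were present too: 12 endothelium markers summed to between 181 and 380 CPM and 11 markers of the ovarian surface and mesothelium to between 457 and 777 CPM per library. Sums that did not overlap between the groups were those of oocyte, red blood cell, theca and interstitial cell, Schwann cell and melanocyte, and oviduct epithelium markers. The 14 oocyte markers summed to 712 to 915 CPM in WT and 600 to 662 CPM in KO, the 7 red blood cell markers to 383 to 798 and 830 to 2260 CPM, the 8 theca and interstitial cell markers to 911 to 1121 and 1328 to 1872 CPM, and the 10 Schwann cell and melanocyte markers to 74.1 to 83.4 and 62.3 to 67.5 CPM. Most of the theca and interstitial cell sum was Aldh1a1, at 665 to 810 CPM in WT and 975 to 1376 CPM in KO. Of these 8 markers, 3 had all KO libraries above WT and 1 had all below. Over all genes tested the shares were 7.68% above and 7.89% below. The part of these cell types in the members' differences was not tested. In bulk RNA, fewer cells of a type and less RNA per cell cannot be told apart. KO replicate 3 stood apart: its granulosa cell markers summed to 18799 CPM, against 11551 to 13539 CPM in the other libraries.

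Most members were silent in these cells, and a few Sox and Irx genes carried most of the signal. Levels between genes are given in TPM, which scales counts to gene length and library size. A gene was called on at a WT mean of 1 TPM or more, low from 0.1 TPM and silent below that. In WT, 19 members were on, 16 low and 45 silent. Of the members, 23.8% were on, beside 61.5% of all protein-coding genes, and 56.2% were silent, beside 25.3%. The Sox family held 62.3% of the summed TPM of all members and the Irx family 21.4%. The Tbx family held 6.02%, the Lhx family 2.77% and the sine oculis homeobox family 6.95%, while Pax, Nkx and Dlx together had no member on.

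**Figure D1:**
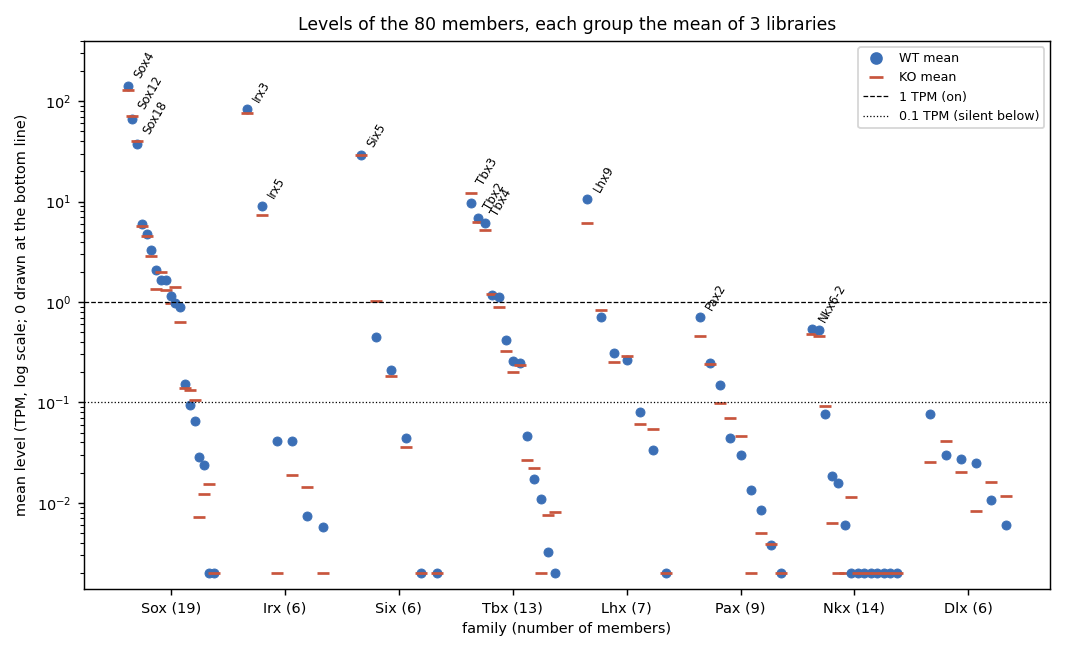
Mean level in TPM (log axis, 0 drawn at the lowest line) of each of the 80 members by family, with WT means as circles and KO means as dashes. Sox4, Irx3, Sox12, Sox18 and Six5 lie above the rest, and the Dlx genes all lie below the dotted line at 0.1 TPM.

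Sox4 was the highest member. It belongs with Sox11 and Sox12 to the SOXC group, which acts in progenitor cells and early differentiation. Sox4 (chr13:28948919-28953713, GRCm38) stood at 143 ± 8.68 TPM in WT and 129 ± 8.72 TPM in KO. Its value is uncertain, since 54.6% of its exon bases are shared with Gm26735 on the opposite strand, a gene listed at 0 counts in all 6 libraries. The library kit named in the labels does not mark strand, so reads of the pair cannot be told apart. Sox12 stood at 66.3 ± 3.18 TPM in WT and 70.5 ± 7.59 TPM in KO, while Sox11, the other group member, was low at 0.154 ± 0.0422 TPM in WT. In the SOXF group of endothelial factors all 3 genes were on in WT, with Sox18 at 37.8 ± 5.90 TPM, Sox7 at 1.65 ± 0.247 TPM and Sox17 at 1.14 ± 0.381 TPM.

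The SOXD genes Sox5 (5.96 ± 0.657 TPM in WT) and Sox13 (4.80 ± 0.460 TPM) were on, and Sox6 lay just under the threshold at 0.891 ± 0.142 TPM. Of the SOXE genes, Sox9, the factor that drives Sertoli cell fate in the testis, stood at 2.10 ± 0.116 TPM and Sox8 at 1.64 ± 0.288 TPM, whereas Sox10, a neural crest factor, was silent. The SOXB genes of neural progenitors, Sox1, Sox2, Sox3, Sox14 and Sox21, were silent in WT. Sox15 was on at 3.31 ± 0.359 TPM.

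Outside the Sox family, 9 members were on in WT. Irx3, an Iroquois homeobox gene (chr8:91798525-91802067), stood at 83.2 ± 4.39 TPM and Irx5, 556 kb away on the same chromosome, at 9.07 ± 0.912 TPM. Irx6, 298 kb beyond Irx5, had 1 count in 1 library and was silent. Irx1, Irx2 and Irx4, in the other Iroquois cluster on chromosome 13, were silent too. Six5, which lies in the myotonic dystrophy locus, stood at 29.4 ± 2.54 TPM. Lhx9 stood at 10.6 ± 1.11 TPM. The T-box repressor genes Tbx3 and Tbx2 stood at 9.73 ± 1.18 and 6.94 ± 0.406 TPM, and the limb gene Tbx4 at 6.08 ± 0.704 TPM. In the order of levels, the WT libraries of Lhx9, Tbx3 and Irx5 overlapped from each gene to the next, as did those of Tbx2, Tbx4 and Sox5.

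The members just above the threshold of 1 TPM in WT were Tbx19 (1.12 ± 0.0343), Sox17 (1.14 ± 0.381) and Tbx1 (1.18 ± 0.152 TPM). Those just below it were Sox30 (0.975 ± 0.128), Sox6 (0.891 ± 0.142) and Pax2 (0.706 ± 0.0701 TPM). Pax2, Pax5 and Pax8 were the Pax genes above the silent range, all low, and Nkx6-2 (0.537 ± 0.118 TPM) and Nkx2-9 (0.521 ± 0.0482 TPM) were the 2 low Nkx genes. Of the Tbx genes, the T cell factor gene Tbx21 (0.420 ± 0.0191 TPM), Tbx15 (0.258 ± 0.0567 TPM) and Tbx6 (0.247 ± 0.0399 TPM) were low. The low Nkx6-2 shares 12.9% of its exon bases with Inpp5a on the opposite strand.

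Of the 45 silent members, 12 had no count in any of the 6 libraries: Lhx1, Nkx1-2, Nkx2-1, Nkx2-2, Nkx2-3, Nkx2-6, Nkx3-2, Nkx6-3, Pax7, Six3, Six6 and Sox14. Among them are patterning genes of the neural tube (Nkx2-2), the eye (Six6), the forebrain (Six3) and the thyroid and lung (Nkx2-1). In a single library, 3 counts, taken as the limit of counting error alone, stood for 0.0290 to 0.180 TPM, depending on the gene's length. With no count in all 6 libraries, the limit over them together is lower and was not computed. Another 15 had 1 to 5 counts over all libraries, among them Pax4, Pax9 and Dlx4, and 18 had more than 5. No silent member had more than 14 counts in a library, a value reached by Pax3 in KO replicate 3. All 6 Dlx genes, which pattern limb, jaw and forebrain, were silent, with the highest WT mean in Dlx5 at 0.0766 ± 0.0676 TPM.

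Several members lie side by side in the genome, in pairs that were alike or unlike in level. Of 18 neighbouring pairs less than 1 Mb apart, 10 were silent in both genes and 2 were on in both (Irx3 with Irx5, and Tbx2 with Tbx4, 44.5 kb apart). In 2 pairs an active gene adjoined a silent one: Irx5 with Irx6, and Tbx3 at 9.73 ± 1.18 TPM with the heart and forelimb gene Tbx5 at 0.0458 TPM, 148 kb away. The other 4 paired a low gene with a silent one, as for Six2 (0.449 ± 0.248 TPM) beside Six3, which had no count.

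Silent members had CpG-rich 5′ ends, unlike silent genes in general. CpG-rich here means an observed over expected CpG ratio of at least 0.6 with at least 50% GC in the 300 bases at the 5′ end of the transcript. The median ratio was 0.735 in the 45 silent members, 0.704 in the 16 low and 0.736 in the 19 on. Over all protein-coding genes it was 0.225 in the silent, 0.409 in the low and 0.703 in the on genes. Of the silent members 33 were CpG-rich (73.3%), against 9.69% of all silent protein-coding genes, 57.9% of the on members and 62.0% of all on genes. The members at the low end were Tbx5 (0.0627), Pax4 (0.179) and Tbx10 (0.197). These values describe sequence only and no histone mark was measured. RefSeq promoter windows matched 56 of the 80 members (70%), too few for the same comparison over promoters, which is therefore void.

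**Figure D2:**
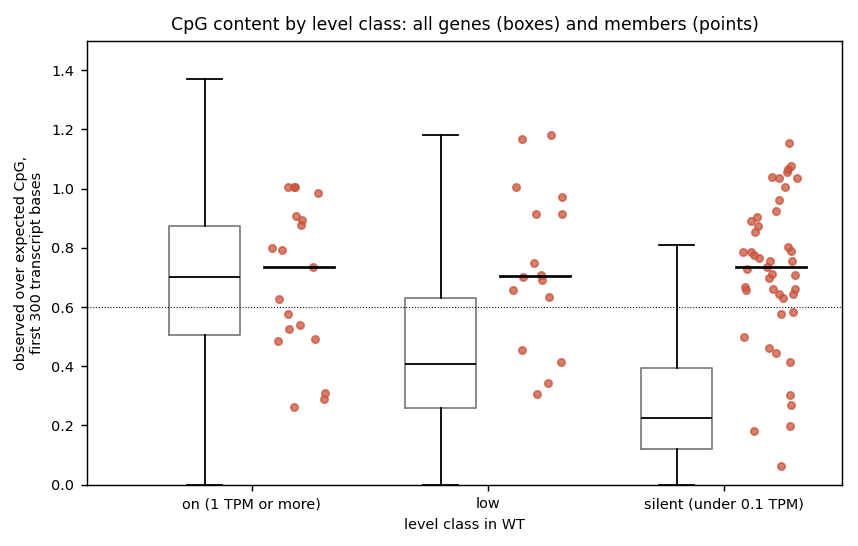
Observed over expected CpG ratio of the 300 bases at the 5′ end of transcripts, by level class in WT: boxes give the median and quartiles of all protein-coding genes (whiskers to 1.5 times the quartile range), points the members and thick lines their medians. The box falls from the on to the silent class (0.703 to 0.225) while the member medians stay at 0.704 to 0.736.

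To set active beside silent promoters, these are the 250 bases before the RefSeq start (GRCm38.p6, minus strand for all 5) of the on genes Sox4 (chr13:28953700-28953949) and Sox12 (chr2:152398047-152398296), of Sox14 (chr9:99876171-99876420) and Lhx1 (chr11:84525535-84525784), which had no count, and of Lhx9 (chr1:138842445-138842694). Capitals mark CpG dinucleotides, of which there are 11, 35, 23, 26 and 4. The Lhx9 window lies 6133 bases inside the gene's outermost start in the count files, so it is only one of its starts.
Sox4: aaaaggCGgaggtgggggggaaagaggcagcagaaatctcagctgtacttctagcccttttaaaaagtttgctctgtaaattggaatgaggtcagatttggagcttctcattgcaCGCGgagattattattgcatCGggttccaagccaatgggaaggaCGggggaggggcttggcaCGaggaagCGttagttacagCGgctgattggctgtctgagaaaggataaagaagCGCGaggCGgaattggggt
Sox12: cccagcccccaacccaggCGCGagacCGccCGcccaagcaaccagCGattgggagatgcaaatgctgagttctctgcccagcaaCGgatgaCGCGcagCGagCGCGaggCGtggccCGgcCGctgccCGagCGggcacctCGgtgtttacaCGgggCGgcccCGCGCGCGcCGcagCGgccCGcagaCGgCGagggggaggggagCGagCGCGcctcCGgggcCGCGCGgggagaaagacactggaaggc
Sox14: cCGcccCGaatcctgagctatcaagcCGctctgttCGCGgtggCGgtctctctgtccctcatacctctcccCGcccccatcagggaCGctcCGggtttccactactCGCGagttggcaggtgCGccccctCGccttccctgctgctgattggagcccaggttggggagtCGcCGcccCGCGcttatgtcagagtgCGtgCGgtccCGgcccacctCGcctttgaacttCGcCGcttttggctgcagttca
Lhx1: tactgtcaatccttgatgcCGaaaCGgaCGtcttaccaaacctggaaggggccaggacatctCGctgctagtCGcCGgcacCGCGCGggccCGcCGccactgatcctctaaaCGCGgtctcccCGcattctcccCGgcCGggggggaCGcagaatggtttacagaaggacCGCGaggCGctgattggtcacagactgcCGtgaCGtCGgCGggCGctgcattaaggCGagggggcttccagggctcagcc
Lhx9: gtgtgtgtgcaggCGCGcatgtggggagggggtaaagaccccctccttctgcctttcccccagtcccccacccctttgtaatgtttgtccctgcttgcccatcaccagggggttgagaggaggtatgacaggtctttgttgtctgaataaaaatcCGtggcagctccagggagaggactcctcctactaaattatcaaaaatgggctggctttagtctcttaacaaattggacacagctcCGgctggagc

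The silent Sox14 and Lhx1 windows had ratios of 0.881 and 0.991, the active Sox4 and Sox12 windows of 0.801 and 1.01. The window of Lhx9, an active gene, was CpG-poor at 0.223. At the start of the transcript, the measure used above for the level classes, the ratios differed. There they were 0.414 for Sox14, 0.766 for Lhx1, 0.485 for Sox4, 1.01 for Sox12 and 0.628 for Lhx9. By that measure Lhx9 was CpG-rich, while the silent Sox14 and the active Sox4 were not. The printed windows are therefore examples of sequence and do not rank active against silent genes.

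Between WT and KO no member passed the test. Each difference is a log2 fold change (KO minus WT) from the quasi-likelihood test of edgeR, with p adjusted by Benjamini-Hochberg over all 18250 genes that passed a filter on low counts. Called means an adjusted p under 0.05. Of the 80 members, 34 passed that filter and 46 did not. The test called 0 higher and 0 lower, where it called 0.126% of all genes tested higher and 0.0932% lower. At an unadjusted p under 0.05 there were 0 higher and 4 lower (Lhx9, Sox9, Sox6 and Pax2), beside 4.65% higher and 4.51% lower of all genes tested. Of the 34, 23 had a negative fold change, and the median was -0.10, beside 0.00 over all genes tested, 49.1% of which were negative. The KO libraries lay below all WT libraries for 4 tested members (Lhx9, Sox9, Pax8 and Tbx19) and above them for 0, beside 7.89% below and 7.68% above over all genes tested.

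**Figure D3:**
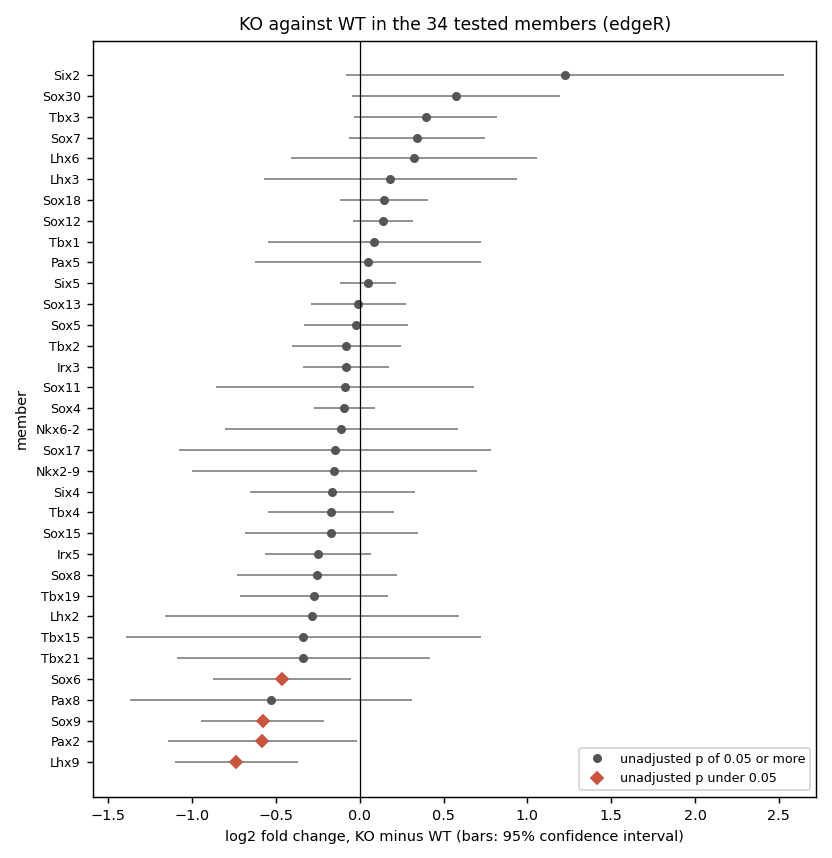
Log2 fold change, KO minus WT, with its 95% confidence interval for the 34 tested members, sorted by size, with diamonds at an unadjusted p under 0.05. Lhx9 lies lowest at -0.74 and Six2 highest at 1.22 with the widest interval.

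Lhx9 came closest to a call. It stood at 30.4, 35.5 and 38.4 CPM across WT replicates 1 to 3 and at 23.0, 23.6 and 16.0 CPM across KO replicates 1 to 3. The groups did not overlap, and KO replicate 3 was the lowest library. The log2 fold change was -0.74 ± 0.16 (SE; 95% confidence interval -1.10 to -0.37) and missed the threshold in edgeR (adjusted p = 0.214). Leaving out KO replicate 3, it was -0.58 and passed in edgeR (adjusted p = 0.00412), in a fit that called 0.521% of genes lower. DESeq2 also called it at -0.74 (adjusted p = 0.00198) and called 0.515% of genes lower. Over all alternatives the adjusted p ran from 0.00198 to 0.684, and the sign was negative in each.

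The ovarian surface, the epithelium that covers the ovary, is another site where Lhx9 is known. Its 11 markers, none of them called and none at 0, summed to 546, 777 and 748 CPM in WT libraries and to 649, 599 and 457 CPM in KO libraries, with KO replicate 3 lowest as for Lhx9. Per 100 CPM of that sum, Lhx9 stood at 5.57, 4.57 and 5.13 CPM in WT libraries and at 3.54, 3.95 and 3.50 CPM in KO libraries, so the groups did not overlap on this scale either. The part of surface cells in the Lhx9 difference was not tested. The 10 oviduct epithelium markers summed to between 122 and 151 CPM in WT libraries and to between 71.4 and 96.6 CPM in KO libraries, a sum in which Ovgp1 alone ran from 1.08 to 73.5 CPM. The part of oviduct cells in the Lhx9 result was not tested.

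**Figure D4:**
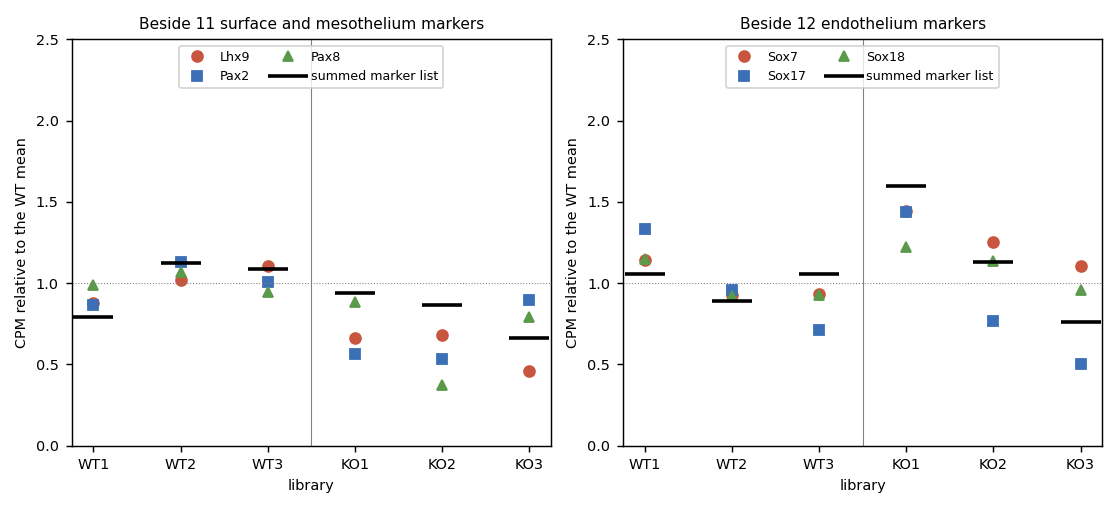
CPM in each library divided by the WT mean, for Lhx9, Pax2 and Pax8 beside the summed surface and mesothelium markers (left) and for Sox7, Sox17 and Sox18 beside the summed endothelium markers (right). Lhx9 lies below the marker sum in all 3 KO libraries, and the endothelium sum is highest in KO replicate 1 and lowest in KO replicate 3.

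Sox9 stood at 2.74, 3.25 and 3.03 CPM in WT libraries and at 1.83, 2.00 and 2.20 CPM in KO libraries. The groups did not overlap, but the difference of -0.58 ± 0.16 (SE; interval -0.94 to -0.21) did not pass in edgeR (adjusted p = 0.312). In granulosa cells FOXL2 is known to keep this gene low. The 8 Sertoli cell markers, of which 7 were tested and none called, had a median log2 fold change of 0.20. They summed to between 839 and 1146 CPM in WT libraries and to between 769 and 963 CPM in KO libraries. Most of that sum was the granulosa cell gene Amh, at 793 to 1096 CPM in WT and 719 to 904 CPM in KO. Sox8 (-0.26 ± 0.21 SE) had libraries that overlapped between the groups.

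Pax2 and Pax8 mark the epithelium of kidney and oviduct. Pax2 stood at 1.15, 1.49 and 1.33 CPM in WT libraries and at 0.746, 0.706 and 1.18 CPM in KO libraries, where replicate 3 lay within the WT range (-0.58 ± 0.25 SE, adjusted p = 0.533, edgeR). Pax8 stood at 0.311, 0.336 and 0.297 CPM in WT libraries and at 0.277, 0.118 and 0.249 CPM in KO libraries. The oviduct marker sum given above was lower in KO too, but rested largely on Ovgp1 and Epcam, whose libraries overlapped between the groups. Ovgp1 stood at 73.5, 22.4 and 7.52 CPM in WT libraries and at 9.62, 1.08 and 12.2 CPM in KO libraries. For 2 of the 10 oviduct markers (Cldn4 and Krt23) all KO libraries lay below WT, and for 0 above. Over all genes tested the shares were 7.89% below and 7.68% above. Krt23 ran from 0.0942 to 0.297 CPM and did not pass the filter on low counts. The part of oviduct cells in the Pax2 and Pax8 values was not tested. The B cell factor gene Pax5 differed by 0.05 ± 0.30 SE.

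Sox6, which acts in cartilage, muscle and red cell development, stood at 3.62, 5.18 and 4.94 CPM in WT libraries and at 3.20, 3.81 and 2.95 CPM in KO libraries. KO replicate 2 lay above WT replicate 1, and the difference of -0.46 ± 0.18 SE did not pass in edgeR (adjusted p = 0.482). Tbx19, a pituitary factor gene, stood at 1.17, 1.26 and 1.27 CPM in WT libraries and at 0.874, 1.08 and 1.10 CPM in KO libraries, without overlap and with an interval of -0.71 to 0.17.

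The largest positive values changed in size when single KO libraries were left out. Six2, a gene of kidney progenitors, stood at 0.409, 0.462 and 0.119 CPM in WT libraries and at 0.427, 0.565 and 1.31 CPM in KO libraries. Replicate 3 was the highest KO library and replicate 3 the lowest WT library, and the value of 1.22 ± 0.56 SE became 0.58 without KO replicate 3. Sox30, a gene of male germ cells, stood at 0.953, 0.923 and 1.15 CPM in WT libraries and at 1.39, 1.01 and 2.10 CPM in KO libraries (0.57 ± 0.28 SE). It too was highest in KO replicate 3, and its value was 0.25 without that library. Tbx3 stood at 21.6, 20.3 and 24.9 CPM in WT libraries and at 37.2, 27.9 and 22.6 CPM in KO libraries (0.39 ± 0.18 SE, adjusted p = 0.578, edgeR). KO replicates 1 and 2 lay above all WT libraries of Tbx3, and KO replicate 3 lay within the WT range. Its value was 0.17 without KO replicate 1 (adjusted p = 0.742, edgeR) and 0.55 without KO replicate 3 (adjusted p = 0.0513, edgeR).

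**Figure D5:**
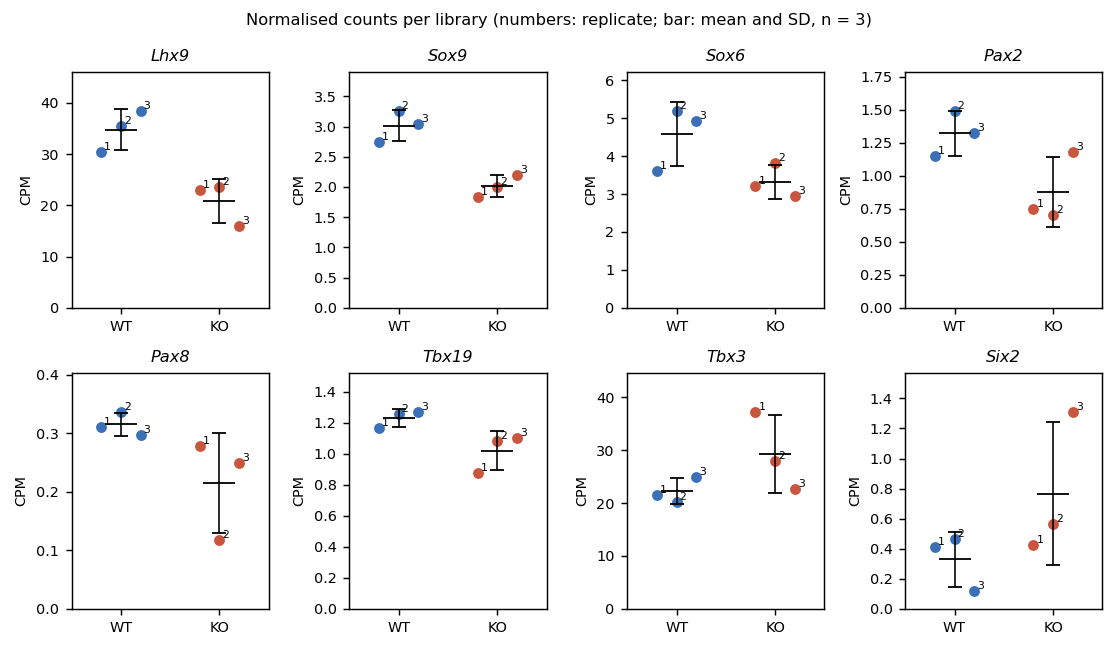
Normalised counts (CPM, axes from 0) in each library of 8 members, with replicate numbers beside the points and bars for the mean and SD of 3 libraries. The groups are apart for Lhx9, Sox9, Pax8 and Tbx19, Six2 has a single high KO library, and Tbx3 has 2 KO libraries above WT.

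The endothelial Sox genes were highest in the same KO library. Sox17 stood at 2.49, 1.78 and 1.33 CPM in WT libraries and at 2.69, 1.44 and 0.935 CPM in KO libraries. Sox7 stood at 2.14, 1.74 and 1.74 CPM in WT libraries and at 2.71, 2.36 and 2.08 CPM in KO libraries, and Sox18 at 24.2, 19.5 and 19.6 CPM in WT libraries and at 25.7, 24.0 and 20.2 CPM in KO libraries. All 3 genes were highest in KO replicate 1. The 12 endothelium markers, none called and none at 0, summed to 250, 211 and 251 CPM in WT libraries and to 380, 269 and 181 CPM in KO libraries, also highest in KO replicate 1. Per 100 CPM of that sum the order differed: Sox18 had 9.68, 9.23 and 7.79 CPM (WT) and 6.77, 8.92 and 11.2 CPM (KO), lowest in KO replicate 1 and highest in KO replicate 3. Sox7 was likewise highest in KO replicate 3 on this scale, at 1.15 CPM, and Sox17 was highest in WT replicate 1, at 0.995 CPM. Fold changes were -0.15 ± 0.40, 0.34 ± 0.18 and 0.14 ± 0.12 SE for Sox17, Sox7 and Sox18.

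The highest members differed little, with intervals that bound the difference. Sox4 stood at 244, 244 and 222 CPM in WT libraries and at 223, 206 and 236 CPM in KO libraries (interval -0.28 to 0.09). Sox12 stood at 101, 109 and 96.0 CPM in WT libraries and at 105, 110 and 122 CPM in KO libraries (-0.04 to 0.32). Six5 stood at 31.9, 28.5 and 31.0 CPM in WT libraries and at 30.3, 32.0 and 32.3 CPM in KO libraries (-0.12 to 0.21). Irx3 stood at 81.3, 77.8 and 79.0 CPM in WT libraries and at 64.5, 70.9 and 89.7 CPM in KO libraries (-0.34 to 0.17), so that the KO libraries lay on both sides of WT. Irx5, also highest in replicate 3 among the KO libraries, stood at 10.4, 9.02 and 9.97 CPM in WT libraries and at 7.49, 7.32 and 9.91 CPM in KO libraries (-0.56 to 0.07). For 23 of the 34 tested members the interval lay within 1 log2 unit of 0.

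Sox5 (-0.33 to 0.29), Tbx2 (-0.40 to 0.24) and Tbx4 (-0.55 to 0.21) also had intervals that include 0, and their groups overlapped. The low members Lhx6 (0.32 ± 0.32 SE), Lhx2 (-0.28 ± 0.39 SE), Nkx6-2 (-0.11 ± 0.31 SE), Nkx2-9 (-0.15 ± 0.38 SE) and Six4 (-0.16 ± 0.22 SE) had differences below their error or close to it, at 7 to 92 counts per library.

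The number of members in each class hardly moved between genotypes, with 19 on in both groups, 16 low in WT against 17 in KO and 45 silent against 44. By the group means, 7 members crossed a threshold. Six2 (0.449 to 1.02 TPM) and Sox30 (0.975 to 1.39 TPM) went from low to on, Sox17 (1.14 to 0.974 TPM) and Tbx19 (1.12 to 0.894 TPM) from on to low, and Pax8 (0.150 to 0.0980 TPM) from low to silent. Sox2 (0.0933 to 0.134 TPM) and Sox3 (0.0659 to 0.105 TPM) went from silent to low on at most 10 counts in a library. Without KO replicate 3, Six2 (0.653 TPM), Sox17 (1.18 TPM) and Sox3 (0.0440 TPM) did not cross, and the other 4 did. Of the 7, 5 were tested and none of these was called in edgeR or DESeq2, while Sox2 and Sox3 were not tested. No silent member reached 1 TPM in the KO mean.

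The 45 silent members together had 48, 56 and 58 counts in WT replicates 1 to 3 and 33, 44 and 85 in KO replicates 1 to 3. On the normalised scale that was 0.934, 1.18 and 1.15 CPM in WT libraries and 0.704, 1.04 and 1.77 CPM in KO libraries, so KO replicate 3 was the highest library and the other KO libraries lay below WT replicates 2 and 3. Irx2 had 4, 2 and 1 counts in WT and 0 in each KO library. Pax3 had 5, 7 and 2 counts in WT and 5, 3 and 14 in KO, Pax6 had 4, 7 and 7 in WT and 8, 6 and 13 in KO, and Sox3 had 1, 4 and 2 in WT and 2, 1 and 8 in KO. All 3 were highest in KO replicate 3. These members were chosen after their values were seen.

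No gene of the machinery that writes, removes or reads the mark passed the test. Of 11 tested PRC2 genes 0 were called, with a median of -0.05. Rbbp7, a histone-binding subunit, stood at 553 ± 12.4 CPM in WT libraries and 490 ± 15.1 CPM in KO libraries (-0.17 ± 0.08 SE, adjusted p = 0.542, edgeR), and the catalytic subunit gene Ezh2 at 71.7 ± 5.54 and 66.1 ± 5.10 CPM. The demethylase genes Kdm6a (-0.08 ± 0.07 SE) and Kdm6b (0.26 ± 0.22 SE) were not called, and Uty, on the Y chromosome, had no count. Of 19 PRC1 genes 0 were called (median -0.03), and Pcgf6 stood at -0.16 ± 0.08 SE. Of 12 tested trithorax and COMPASS genes, which write the opposing lysine 4 mark, 0 were called (median 0.02), with Kmt2d at 0.33 ± 0.17 SE and Paxip1 at -0.11 ± 0.08 SE.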

How the data were processed

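The deposited values are raw counts per gene that the authors made, per the file headers, in the table format of featureCounts. Per the submitters' processing notes, reads were handled with Trimmomatic (version 0.36), STAR (2.5.2b) and featureCounts from Subread (1.5.2), on build GRCm38. Strand setting, annotation release and the handling of shared reads were not stated there. The kit named in the labels' protocols, NEB Next Ultra RNA, does not mark strand.

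Symbols came from GENCODE M21 (49056 of 49315 identifiers matched), and the start and end of 75 of the 80 members were the same there. Counts were fitted with edgeR 4.0.16 in R 4.3.3 (filterByExpr, TMM, robust quasi-likelihood test, genotype as the only term, Benjamini-Hochberg adjustment over 18250 genes). The fit was tested on simulated data. CPM use the TMM-adjusted library size, TPM the length column of the count files, which merges all exons of a gene. The 13 marker lists gave 3 called genes, Amhr2 and Wt1 lower and Slc4a1 higher. Alternatives were RLE scaling, DESeq2 1.42.0, no filter, a filter at a mean of 1 CPM, the replicate number as a block and leaving out each library.

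The members, lists and rules were chosen with earlier results of these data known. Named members were those with an unadjusted p under 0.05, the top 3 of each family, those at 5 TPM or more, those that crossed a class and the 3 on either side of 1 TPM. Others were chosen after their values were seen. A gene that the rule names for a pathway list is not reported here. The CpG measure at transcript ends was added after the promoter windows proved incomplete.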

Additional observations from a re-analysis of the deposited data

How the results depend on the processing

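The count of called members was 0 under RLE scaling, no filter (68 members tested), the filter at a mean of 1 CPM (21 tested), the replicate block and without WT replicate 1, 2 or 3 or KO replicate 1 or 2. It was 1 (Lhx9, lower) with DESeq2 and 1 without KO replicate 3, so leaving out single libraries gave 0 to 1. Over all genes the calls were 40 in the main fit, 15 with the replicate block, 21 with the 1 CPM filter, 199 with no filter, 220 with DESeq2, 421 without KO replicate 3, and 8 to 36 without another library. Same-numbered libraries correlated at -0.04, 0.10 and -0.11 in their deviations from the group means, and different-numbered ones at -0.11 to 0.13. These values showed no pairing by number, but so few libraries cannot decide whether there was one. The member median stayed between -0.12 and -0.07. The number on in WT was 25 at 0.5 TPM, 14 at 2 TPM, 21 at 1 CPM and 18 to 20 without a WT library, and the number on in KO 19 to 20 without a KO library (chosen after seeing the data). Of 26 named tested members, 17 kept their sign in all alternatives run. The other 9 changed sign only when a library was left out. Lowest and highest values then were -0.23 and 0.0106 for Irx3, -0.73 and 0.0075 for Lhx2, -0.43 and 0.0272 for Nkx2-9, -0.21 and 0.23 for Pax5, -0.0072 and 0.0817 for Six5, -0.17 and 0.0781 for Sox5, -0.67 and 0.15 for Sox17, -0.21 and 0.054 for Tbx2 and -0.21 and 0.28 for Tbx1. Low members rest on few counts, which limits what these libraries can show.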
